A study of Homo sapiens with 4 samples.

Results

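The oxidative phosphorylation genes are the genes whose products form the respiratory chain and the ATP synthase in the inner mitochondrial membrane. They were picked by gene symbol, under a rule chosen with earlier results of these data known. It took the mitochondrial genes of the MT-ND, MT-CO, MT-ATP and MT-CYB families and the NDUFA, NDUFB, NDUFC, NDUFS and NDUFV genes. It also took SDHA to SDHD, CYC1, and the UQCR, COX4 to COX8 and ATP5 genes. The rule found 95 of the 14355 gene names in the tables, with 256 of 38455 transcripts. Of these, 82 lie in the nuclear genome and 13 in the mitochondrial genome, and by complex they are 40 genes of complex I, 4 of complex II, 11 of complex III, 19 of complex IV and 21 of complex V. NDUFA4 and NDUFA4L2 were counted with complex IV, where the NDUFA4 protein is found. Genes of the same complexes with other symbols were not members.

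The measurements are ribosome profiling (Ribo-seq) counts, that is, sequenced RNA fragments that ribosomes shielded from RNase I. Cells were Hermes 4B, human melanocytes of the skin grown as an immortalised line, and the labels give the wild-type genotype for every library. Library groups were CDH3-AS1 siRNA in batch 1 and batch 2, and control siRNA in batch 1 and batch 2, with 1 library each. CDH3-AS1 is an antisense RNA at CDH3, the gene of P-cadherin, and the series asks how it affects that gene. All 4 libraries shared growth in serum with TPA, endothelin-1, cholera toxin and stem cell factor, siRNA at 25 to 50 nM, and 100 µg/mL cycloheximide, which stalls cytosolic ribosomes. Everything comes from a single line, and the labels do not say whether libraries of a group were grown as separate cultures. The p-values then reflect the scatter among these 4 libraries alone, and that scatter may be technical. What set the batches apart is not stated in the labels, and the level of CDH3-AS1 itself was not analysed here.

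Complexes I to IV pass electrons from NADH and succinate to oxygen, and complexes I, III and IV pump protons as they do so. Complex V, the ATP synthase, lets the protons flow back and makes ATP. Cytosolic ribosomes translate the nuclear subunits, which are then imported, while ribosomes inside the mitochondrion translate the mitochondrially encoded ones and insert them into the inner membrane. Complex II has no mitochondrially encoded subunit. Melanocytes carry the same respiratory chain as other cells, with several subunits that exist as a common form and a tissue-restricted form.

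Libraries held 6759850 and 2858835 reads with CDH3-AS1 siRNA and 2034854 and 5994485 reads with control siRNA, in batches 1 and 2, and coding sequence took 90.5% to 93.9% of them. All 8 melanocyte markers had reads in every library, with summed levels of 21569 and 31743 coding-sequence reads scaled to a common library total (CPM) with CDH3-AS1 siRNA and 23272 and 40154 CPM with control siRNA. The control library of batch 1 stood apart. Skeletal muscle markers summed to 3910 CPM there, with reads for all 11 of the 13 markers that were listed in the tables, against 3.45 to 7.72 CPM in the other 3 libraries, where MB, CKM and MYL1 were at 0. Fibroblast markers summed to 492 CPM in that library, against 0.533 to 4.88 CPM elsewhere. That sum came from 3 of the 6 markers, COL1A1, COL1A2 and LUM. DCN and PDGFRA went the other way, with no reads there and reads in every other library, and COL3A1 had no reads in any library. Erythroid HBB stood at 35.8 CPM in the control library of batch 1, against 0 elsewhere. The part of this library's foreign markers in the siRNA differences was not tested, and differences are therefore given for each batch alone as well.

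Of the 95 members, 86 passed the count filter and were tested, namely all 13 mitochondrial genes and 73 of the 82 nuclear genes. NDUFA6, NDUFA7 and UQCR11, small subunits of complexes I and III that every respiring cell uses, were listed with 0 coding-sequence reads in every library although their untranslated regions had reads. For NDUFA6 this was only 1 read, in the CDH3-AS1 siRNA library of batch 2. Those zeros are therefore values of the tables and not evidence that the genes were silent. COX4I2, COX7A1, COX7B2, NDUFA4L2, UQCRHL and ATP5MGL had at most 7 reads in any library and were not tested either. In bulk libraries such as these, fewer cells of a type and fewer footprints per cell cannot be told apart.

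Nuclear members held a similar share of the footprints in all libraries, while the share of the mitochondrial members depended on the batch. Nuclear members took 0.954% and 0.968% of coding-sequence reads with CDH3-AS1 siRNA and 1.17% and 1.07% with control siRNA, in batches 1 and 2. Mitochondrial members took 0.209% (95% Clopper-Pearson interval 0.206 to 0.213) and 2.27% (2.25 to 2.29) with CDH3-AS1 siRNA. With control siRNA they took 0.321% (0.313 to 0.329) and 2.11% (2.100 to 2.124). The intervals cover counting error only. Both batch 2 libraries lay above both batch 1 libraries by far more than the siRNA libraries of the same batch differed.

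**Figure D1:**
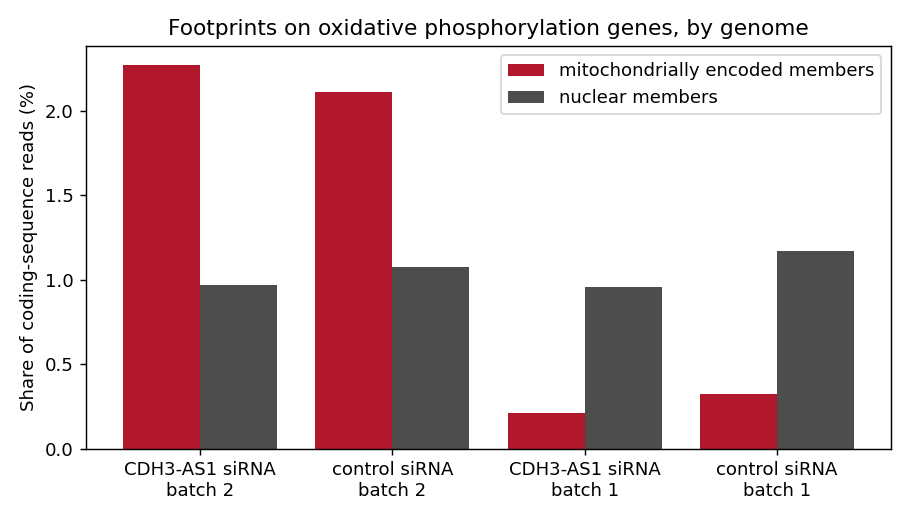
Share of each library's coding-sequence reads (%, linear axis from 0) on the 13 mitochondrially encoded and the 82 nuclear members, 1 bar per genome and library. The mitochondrial bars stand at 2.27% and 2.11% in batch 2 against 0.209% and 0.321% in batch 1, and the nuclear bars stay between 0.954% and 1.17%.

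Expressed as a ratio, mitochondrial reads were 0.219 and 2.35 times the nuclear reads with CDH3-AS1 siRNA and 0.275 and 1.97 times with control siRNA, in batches 1 and 2. The log2 ratio was 3.42 higher in batch 2 than in batch 1 with CDH3-AS1 siRNA and 2.84 higher with control siRNA. Between the siRNAs it differed by -0.33 in batch 1 and by 0.25 in batch 2, with a mean of -0.04, so the direction was opposite in the batches. An exact permutation test of 2 libraries against 2 cannot give a two-sided p below 0.333, and no test of this ratio was made. Without MT-ND5, the gene with the most reads, the siRNA differences were -0.15 and 0.01 and the mean batch difference was 2.39.

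Ribosome density, the CPM per kilobase of coding sequence summed over a gene's transcripts, ranked the subunits within a complex over a wide range. Among the 31 tested nuclear genes of complex I, the mean control density ran from 23.1 for NDUFB9, a membrane-arm subunit, to 869 for NDUFA13, an accessory subunit also known for a role in cell death. In complex II it ran from 17.4 for SDHB, the iron-sulfur subunit, to 131 for SDHA, the flavoprotein that oxidises succinate. In complex III it ran from 11.1 for UQCRC2, a core protein, to 825 for UQCRQ, a small subunit. These are levels and not differences between the siRNAs.

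Complex IV ran from 13.8 for COX6A2, the heart and muscle form of subunit 6A, to 1400 for COX6B1, a subunit on the outer face of the complex. Complex V ran from 2.44 for the readthrough name ATP5MF-PTCD1 to 1063 for ATP5MF, a subunit of the membrane part. The median control density was 258 in complex I, 112 in complex II, 287 in complex III, 545 in complex IV and 323 in complex V for nuclear genes. SDHA and SDHB, partners in the same catalytic unit, thus had densities far from each other in the tables. Densities rest on how reads were shared among transcripts and on transcript length, since 63 of the 146 SDHD reads in the CDH3-AS1 siRNA library of batch 1 fell to a transcript with a coding length of 117 bases. Reads of ATP5MF were likewise spread over transcripts of 150, 168 and 297 coding bases, so its top place in complex V depends on that sharing.

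**Figure D2:**
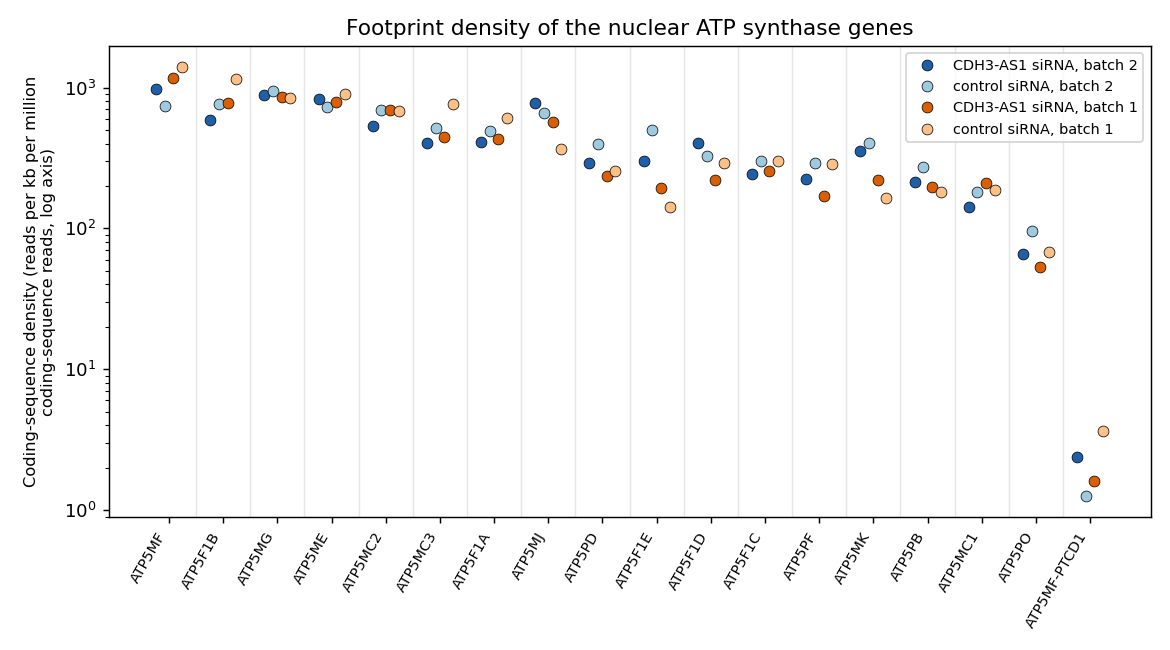
Ribosome density (CPM per kilobase of coding sequence, log axis) of the 18 tested nuclear ATP synthase genes in each library, ordered by mean control density. Points are single libraries. ATP5MF stands highest on average in the controls at 1063 and ATP5MF-PTCD1 lowest at 2.44. The order of genes differs between libraries. In the control library of batch 2, ATP5MF (735) lies below ATP5MG (942). ATP5F1E stands at 143 in the control library of batch 1 and at 497 in that of batch 2.

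The catalytic head of the ATP synthase illustrates the order within a single complex. ATP5F1B, the catalytic beta subunit, had 1226 and 935 CPM with CDH3-AS1 siRNA and 1822 and 1206 CPM with control siRNA, in batches 1 and 2. ATP5F1A, the alpha subunit that alternates with beta, had 332 and 319 CPM with CDH3-AS1 siRNA and 422 and 392 CPM with control siRNA. Both CDH3-AS1 siRNA libraries were below both controls for ATP5F1A, while for ATP5F1B the batch 1 value with CDH3-AS1 siRNA exceeded the batch 2 control. In density, ATP5F1B stood at 679 ± 129 with CDH3-AS1 siRNA and 952 ± 274 with control siRNA (SD, n = 2 each). ATP5F1A stood at 418 ± 13.9 and 552 ± 85.9 for the same groups. The size of the gap between these genes depends on how reads were shared among transcripts. All ATP5F1B coding reads lay on a transcript of 1590 coding bases. For ATP5F1A, 94 of the 777 reads in the control library of batch 1 fell to a transcript of 177 coding bases, which raises its density.

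Subunit c, which forms the rotating ring, is encoded by the 3 genes ATP5MC1, ATP5MC2 and ATP5MC3 whose mature proteins are the same. ATP5MC2 held 51.6% and 49.3% of the summed subunit c density with CDH3-AS1 siRNA and 41.9% and 49.9% with control siRNA, in batches 1 and 2. ATP5MC3 held 32.9% and 37.5% with CDH3-AS1 siRNA and 46.6% and 37.0% with control siRNA. ATP5MC1 was the lowest of the 3 in every library, with 15.5% and 13.2% with CDH3-AS1 siRNA and 11.5% and 13.1% with control siRNA. ATP5MC2 and ATP5MC3 changed places only in the control library of batch 1. The genes share sequence, so reads could have been split among them.

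The nuclear members are known as targets of transcription factors that serve respiration, NRF1 and the ETS-family factor NRF2 among them, and their promoters were searched for the matching letters. RefSeq promoters (GRCh38.p14, 250 bases before to 50 bases after the start) were matched for 58 of the 73 tested nuclear members. The NRF1-type letters GCGCANGCG, on either strand, were in 18 of them (31.0%), against 8.05% of all 27305 promoters and 13.8% of the promoters of genes in the tables. The ETS-type letters CCGGAAG were in 17 (29.3%), against 10.7% and 17.6%. The YY1-type letters AAGATGGCG were in 6 (10.3%), against 1.85% and 3.67%, and TATAAA in 6 (10.3%), against 12.0% and 6.66%. A match is a description of letters and not a measured binding site.

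Promoters with the NRF1-type letters came from every complex, with 6 in complex I, 2 in complex II, 3 in complex III, 1 in complex IV and 6 in complex V. For each complex, the 60 bases around the match are shown for the member with the highest control density among those whose match lies before the start, with the matching letters in capitals, 5′ to 3′ on the gene's strand. They are given to show how the same core stands at different distances from the start: 159 bases before it in NDUFB4, 166 in SDHA, 46 in UQCRC1 and 219 in COX6A1 and in ATP5ME. The positions are chr3:120596152-120596211 on the plus strand for NDUFB4, chr5:218129-218188 on the plus strand for SDHA, chr3:48609658-48609717 on the minus strand for UQCRC1, chr12:120437869-120437928 on the plus strand for COX6A1 and chr4:674461-674520 on the minus strand for ATP5ME (GRCh38.p14).
NDUFB4: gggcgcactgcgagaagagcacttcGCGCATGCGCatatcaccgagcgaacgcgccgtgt
SDHA: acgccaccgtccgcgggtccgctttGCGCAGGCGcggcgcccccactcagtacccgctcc
UQCRC1: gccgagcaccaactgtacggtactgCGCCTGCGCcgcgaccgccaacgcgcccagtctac
COX6A1: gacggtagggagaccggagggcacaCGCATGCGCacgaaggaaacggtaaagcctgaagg
ATP5ME: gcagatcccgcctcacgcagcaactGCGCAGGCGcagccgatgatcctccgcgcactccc

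Medians of members with and without each motif differed in no common direction, and no test was made of them. The median log2 difference between CDH3-AS1 siRNA and control siRNA, with the batch as a block, was -0.16 for the matched members with the NRF1-type letters and -0.19 for those without them. It was -0.063 and -0.19 with and without the ETS-type letters, -0.37 and -0.16 for the YY1-type letters, and -0.30 and -0.17 for TATAAA. The median control density was 270 with and 323 without the NRF1-type letters, 476 and 296 for the ETS-type, 267 and 315 for the YY1-type, and 167 and 315 for TATAAA. Mitochondrial genes have no such promoters, since they are transcribed as long polycistronic RNAs from the mitochondrial chromosome.

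Batch 2 was compared with batch 1 in a model that also held the siRNA, with edgeR's quasi-likelihood test over 10469 genes and Benjamini-Hochberg adjustment at a threshold of 0.05. The mitochondrial genes were higher in batch 2 almost as a set, and the nuclear genes were not. Of all genes tested, 15.8% were called, 9.52% higher and 6.3% lower in batch 2. Of the 13 mitochondrial members, 12 were called higher and 0 lower. Of the 73 nuclear members, 10 were called higher and 4 lower. The median log2 difference was 2.84 over the mitochondrial members, a fold of 7.15, against 0.14 over the nuclear members and 0.01 over all genes tested. The model leaves 1 residual degree of freedom, so the spread comes mainly from all genes together. DESeq2 with the same terms called 16 members higher, 12 of them mitochondrial, and 1 lower, against 6.63% of all genes tested. Fits of the batch alone called 12 members without the control library of batch 1, 11 of them mitochondrial, against 2.63% of all genes tested. Without the CDH3-AS1 siRNA library of batch 2 they called 11, of which 10 were mitochondrial, against 1.09%. Without the control library of batch 2 they called 10, of which 9 were mitochondrial, against 0.279%.

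Every mitochondrial gene was higher in both batch 2 libraries than in both batch 1 libraries, which held for 27.2% of all genes tested and for 26 of the 73 nuclear members (35.6%). Within each siRNA alone the median of the mitochondrial members was 3.06 with CDH3-AS1 siRNA and 2.70 with control siRNA (log2, batch 2 over batch 1). Values without the control library of batch 1 are given by the CDH3-AS1 siRNA pair, and the rise there was as large. Other measures moved with the batch too. The keratinocyte marker list summed to 35.3 and 30.2 CPM in batch 2 with CDH3-AS1 siRNA and control siRNA, against 8.03 and 8.68 CPM in batch 1. In both CDH3-AS1 siRNA libraries this sum was KRT10 alone. KRT5 was at 0 in every library. KRT1 had reads only in the control library of batch 2, and KRT14 only in the control library of batch 1. The 3′ untranslated share of all reads was 1.62% and 1.03% in batch 2, against 2.28% and 3.48% in batch 1. Among reads of the nuclear members that share overlapped between the batches, at 2.00% and 1.13% against 1.85% and 1.34%. The 5′ untranslated share of all reads overlapped too, at 7.09% and 5.08% against 3.81% and 5.98%. The part of these measures in the batch difference was not tested.

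**Figure D3:**
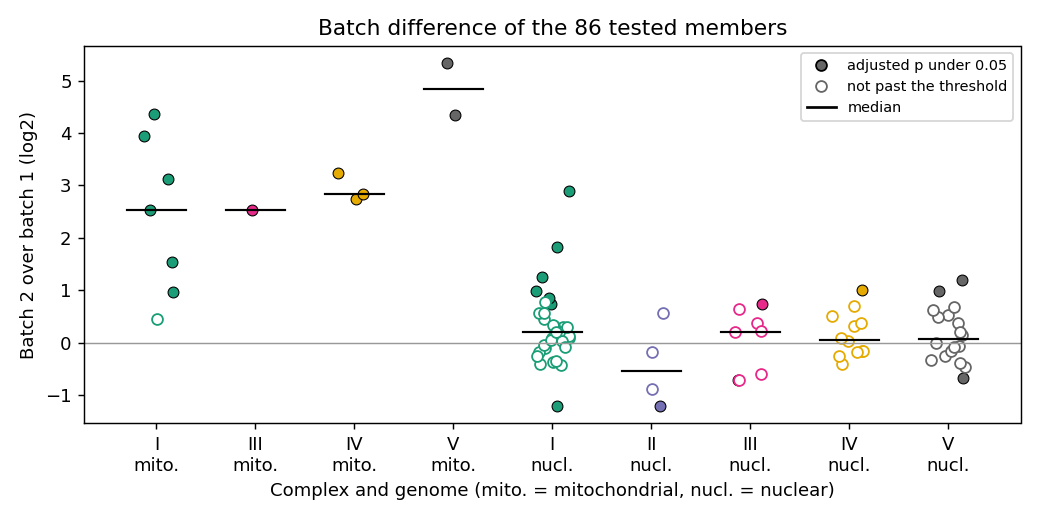
Batch 2 over batch 1 (log2, from the model with the siRNA as a term) for each of the 86 tested members, by genome and complex. Filled points passed the adjusted p threshold, open points did not, and lines are medians. The mitochondrial complexes lie well above 0, with MT-ATP8 at 5.33, while the nuclear complexes scatter around 0 with NDUFB3 at 2.89 the highest.

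The batch difference ran from 1.37-fold for MT-ND1 to 40.3-fold for MT-ATP8, among genes that are transcribed from the same chromosome. MT-ATP8 (chromosome MT, 8366 to 8572), a small membrane subunit, had 562 CPM with CDH3-AS1 siRNA and 893 CPM with control siRNA in batch 2, against 10.9 and 28.2 CPM in batch 1. The log2 difference was 5.33 (SE 0.29, adjusted p = 1.06e-69, edgeR's quasi-likelihood test). MT-ATP6 (8527 to 9207), the subunit that forms the proton channel with the c ring, had 716 and 860 CPM in batch 2, against 43.9 and 33.1 CPM in batch 1, for the same siRNAs in that order. Its log2 difference was 4.34 (SE 0.27, adjusted p = 3.63e-53, edgeR's quasi-likelihood test). These reading frames share 46 bases, so reads there could belong to either.

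Complex I held both the second highest value and the lowest. MT-ND5 (12337 to 14148), a proton-pumping membrane subunit, had 13102 CPM with CDH3-AS1 siRNA and 10564 CPM with control siRNA in batch 2, against 380 and 893 CPM in batch 1. Its log2 difference was 4.36 (SE 0.21, adjusted p = 2.28e-90, edgeR's quasi-likelihood test). MT-ND5 took 57.7% (95% Clopper-Pearson interval 57.3 to 58.1) and 50.0% (49.7 to 50.3) of all mitochondrial member reads in batch 2 with CDH3-AS1 siRNA and control siRNA, against 18.2% (17.5 to 18.8) and 27.8% (26.7 to 29.0) in batch 1. A single gene thus carried at least 50.0% of the mitochondrial signal in each batch 2 library.

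MT-ND1 (3307 to 4262), the subunit next to the quinone site, was the mitochondrial member that did not pass. It had 510 and 448 CPM in batch 2 with CDH3-AS1 siRNA and control siRNA, against 310 and 407 CPM in batch 1, a log2 difference of 0.46 (SE 0.23, adjusted p = 0.178, edgeR's quasi-likelihood test). MT-ND2 (4470 to 5511), a pump subunit, differed by 0.98, with 570 and 500 CPM in batch 2 against 301 and 253 CPM in batch 1. MT-ND4 (10760 to 12137), another pump subunit, differed by 1.55, with 756 and 727 CPM in batch 2 against 253 and 263 CPM in batch 1. These 3 were the smallest differences of the 13.

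The remaining complex I genes lay between. MT-ND3 (10059 to 10404), at the junction of the arms, had 267 and 281 CPM in batch 2 with CDH3-AS1 siRNA and control siRNA, against 11.5 and 28.2 CPM in batch 1, a log2 difference of 3.94. MT-ND4L (10470 to 10766), a small membrane subunit whose frame shares 7 bases with MT-ND4, had 362 and 417 CPM against 53.2 and 87.9 CPM, a difference of 2.53. MT-ND6 (14149 to 14673), which is encoded on the opposite strand to the others, had 33.0 and 45.7 CPM against 4.10 and 3.80 CPM, a difference of 3.12. MT-ND6 had the lowest density of the 13, with a control mean of 47.1 against 3161 for MT-ND5, and 7 reads in the control library of batch 1. The use of strand in counting is not given, so its reads may not be its own.

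MT-CYB (14747 to 15887), the cytochrome b that carries electrons through complex III, had 2772 and 2400 CPM in batch 2 with CDH3-AS1 siRNA and control siRNA, against 339 and 617 CPM in batch 1, a log2 difference of 2.52. In complex IV, MT-CO1 (5904 to 7445), the catalytic subunit, had 1508 and 2069 CPM in batch 2 against 254 and 284 CPM in batch 1, a difference of 2.74. MT-CO2 (7586 to 8269), which takes electrons from cytochrome c, had 1066 and 1364 CPM against 79.4 and 213 CPM, a difference of 3.24. MT-CO3 (9207 to 9990), the core subunit without a metal centre, had 471 and 552 CPM against 51.8 and 101 CPM, a difference of 2.84. All 4 passed edgeR's quasi-likelihood test, the highest adjusted p among them being 9.41e-25.

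**Figure D4:**
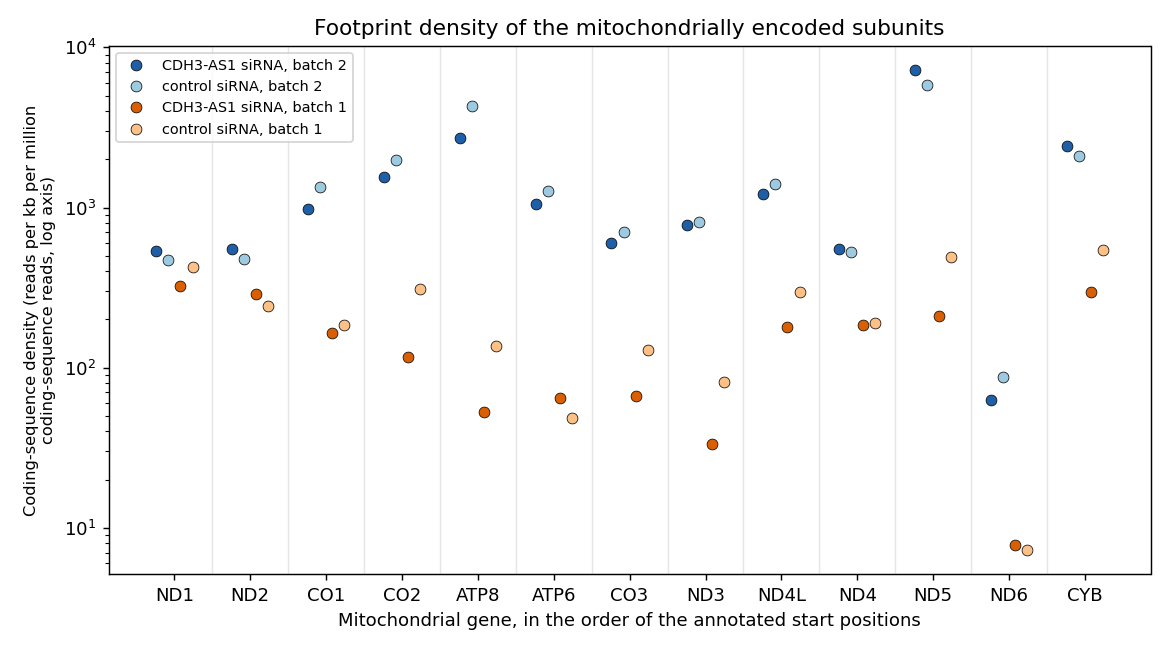
Ribosome density (CPM per kilobase of coding sequence, log axis) of the 13 mitochondrial members in each library, in the order of their annotated starts. Points are single libraries. The batch 2 points lie above the batch 1 points for every gene, closely for ND1 and widely for ATP8, ATP6 and ND5.

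Across the 13 genes, log2 CPM correlated at r = 0.99 between the batch 2 libraries and at r = 0.96 between the batch 1 libraries, and at 0.67 to 0.83 between libraries of different batches. For the 73 nuclear members the same values were 0.97, 0.95 and 0.88 to 0.92. These describe points that share libraries and gene lengths. RefSeq lists between 4 (for MT-ATP8) and 58 (for MT-CO1) nuclear pseudogenes named after each mitochondrial gene, and reads that fit both could have been assigned to either.

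The nuclear members called between the batches in edgeR's model with the siRNA were spread over the complexes and went both ways. Most of these 14 calls depended on the model. DESeq2 with the same terms called 5 nuclear members and 694 of all 10469 genes. Limma called 4 and 766, and edgeR on the batch alone 3 and 538, with 1 nuclear member lower in each fit. NDUFB3 (chromosome 2, 201072001 to 201085750), a membrane-arm subunit of complex I, differed most, with 72.8 and 53.1 CPM in batch 2 with CDH3-AS1 siRNA and control siRNA, against 8.98 and 7.60 CPM in batch 1. Its log2 difference was 2.89 (SE 0.36, adjusted p = 2.95e-13, edgeR's quasi-likelihood test). The other complex I genes that were higher in batch 2 were the accessory subunits NDUFA2 (0.85), NDUFA5 (1.26), NDUFA12 (0.73), NDUFC2 (1.84) and NDUFS4 (0.99). NDUFS8, an iron-sulfur subunit, was lower, with 127 and 110 CPM in batch 2 against 248 and 309 CPM in batch 1, a log2 difference of -1.20 (SE 0.25, adjusted p = 7.4e-05, edgeR's quasi-likelihood test).

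In the other complexes, SDHD, a membrane anchor of complex II, was lower in batch 2 by a log2 difference of -1.21 on 23 and 57 reads in batch 2 against 146 and 42 reads in batch 1. CYC1, the cytochrome c1 of complex III, was lower at -0.72, with 223 and 222 CPM against 356 and 390 CPM, and UQCR10, a small subunit, was higher at 0.74. COX5A, a matrix-side subunit of complex IV, was higher at 1.01, with 188 and 129 CPM against 76.4 and 82.0 CPM. In the ATP synthase, ATP5F1E, the epsilon subunit, was higher at 1.19, ATP5MK, a membrane-part subunit, was higher at 0.99, and ATP5MF was lower at -0.67. Adjusted p-values of these 7 genes lay between 0.00251 and 0.0455 in edgeR's quasi-likelihood test. NDUFC2 and ATP5MF share reads with readthrough names and are uncertain.

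CDH3-AS1 siRNA was compared with control siRNA over the same genes. Nuclear members tended to be slightly lower, and no member passed the test of the siRNA alone. In that test, edgeR's quasi-likelihood test without the batch, 0% of all genes tested and 0 of 86 members were called. At an unadjusted p under 0.05 there were 225 genes of all tested and 1 member, NDUFB9, and DESeq2 called 2 genes and 0 members. With the batch as a block, which the shared batch labels allow, 1.62% of all genes tested and 2 members were called, both of them mitochondrial and lower. DESeq2 with the block called 0 members and 0.544% of all genes tested.

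Without the block, the median log2 difference was -0.18 over the 73 nuclear members and -0.19 over the 13 mitochondrial members, against -0.03 over all genes tested. With the block, the median was -0.16, -0.28 and -0.005 for the same sets in that order. For nuclear members the median within-batch difference was -0.20 in batch 1 and -0.13 in batch 2. Of the 73, 34 (46.6%) were lower in both batches and 9 (12.3%) were higher in both, against 27.8% and 26.5% of all genes tested. Both CDH3-AS1 siRNA libraries lay below both controls in CPM for 19 nuclear members (26.0%) and above them for 3 (4.11%), against 16.1% and 11.2% of all genes tested. No list-level test was made of these counts.

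**Figure D5:**
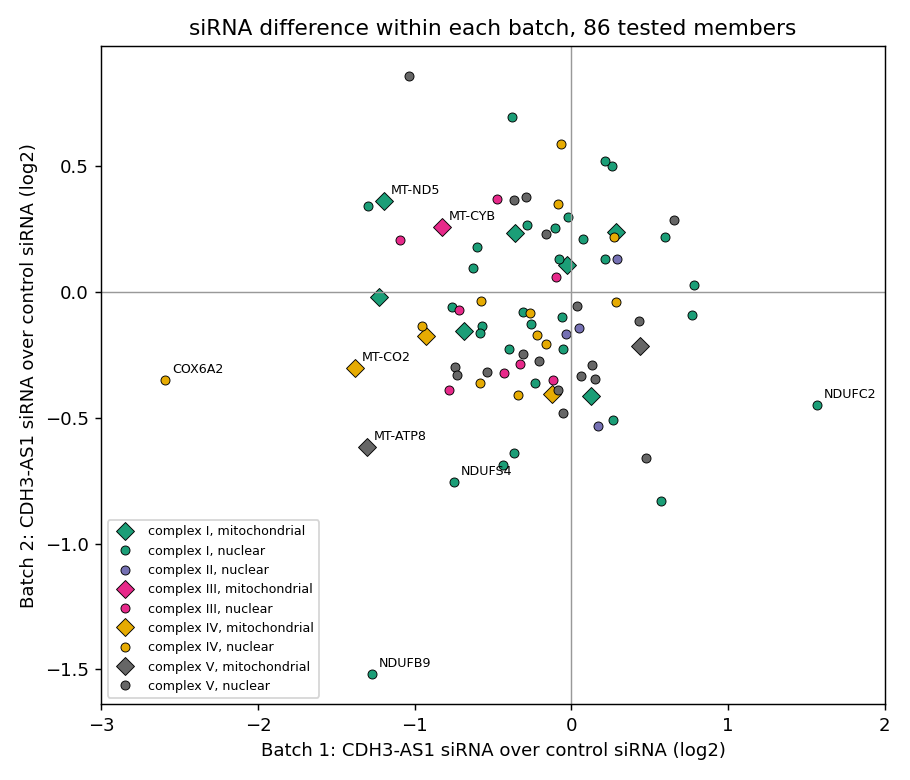
CDH3-AS1 siRNA over control siRNA (log2) in batch 1 (horizontal) and batch 2 (vertical) for the 86 tested members, coloured by complex, with diamonds for mitochondrial and circles for nuclear genes. Points at the lower left were lower with CDH3-AS1 siRNA in both batches. NDUFB9 stands at -1.28 and -1.52 and MT-ATP8 at -1.31 and -0.62, while MT-ND5 and NDUFC2 have opposite signs in the batches.

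Complex III had the lowest nuclear median, at -0.32 without the block (log2, CDH3-AS1 siRNA over control siRNA). Of its 8 tested genes, 5 were lower in both batches and 0 higher in both. Complex IV stood at -0.19 with 8 of 12 lower in both and 1 higher, complex I at -0.15 with 13 of 31 lower and 6 higher, and complex V at -0.15 with 7 of 18 lower and 1 higher. Complex II stood at 0.01, with 1 of 4 lower and 1 higher. With the block, the medians were -0.34 in complex III, -0.19 in complex IV, -0.14 in complex I, -0.13 in complex V and -0.07 in complex II. Differences between complexes were not tested.

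In complex III, UQCRFS1, the Rieske iron-sulfur protein, had the lowest value, with 34.7 and 45.2 CPM with CDH3-AS1 siRNA and 61.3 and 61.5 CPM with control siRNA, in batches 1 and 2. The log2 difference was -0.58 (SE 0.34, adjusted p = 1.00) in edgeR's quasi-likelihood test. UQCRC1, a core protein, had 435 and 290 CPM with CDH3-AS1 siRNA and 599 and 375 CPM with control siRNA, a difference of -0.38. CYC1 stood nearest to 0 at -0.03. For UQCRFS1 the groups did not overlap, and for UQCRC1 the batch 1 value with CDH3-AS1 siRNA exceeded the batch 2 control.

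In complex I, the member that stood furthest below the controls was NDUFB9 (chromosome 8, 124539123 to 124549979), on few reads. It had 26 and 7 reads with CDH3-AS1 siRNA and 20 and 50 reads with control siRNA, in batches 1 and 2, which is 4.10 and 2.68 CPM against 10.9 and 8.88 CPM. The groups did not overlap, and the log2 differences were -1.28 and -1.52 within the batches. The fitted difference of -1.34 (SE 0.52) missed the threshold of edgeR's quasi-likelihood test (adjusted p = 1.00), also with the block (adjusted p = 0.276).

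NDUFS4 (chromosome 5, 53560639 to 53683338), an accessory subunit of the matrix arm needed for a stable complex, had 44.9 and 87.0 CPM with CDH3-AS1 siRNA and 77.6 and 152 CPM with control siRNA. Within each batch it was lower by almost the same amount, with log2 differences of -0.75 and -0.76, although the batch 2 value with CDH3-AS1 siRNA exceeded the batch 1 control. Its adjusted p was 0.184 with the block in edgeR's quasi-likelihood test. NDUFB9, NDUFS4 and MT-ATP8 were the 3 of 86 tested members lower by at least 0.5 in both batches. That share lies below the 4.67% of all genes tested. Members higher by that amount in both batches numbered 0, against 4.37% of all genes tested. At the other end, NDUFB3 had the highest fitted difference of complex I with the block, 0.42 (SE 0.35), on the read counts with the large batch difference given above.

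Other nuclear members differed little or unevenly. In complex II, SDHA had 103 and 141 CPM with CDH3-AS1 siRNA and 85.8 and 134 CPM with control siRNA, and SDHB had 99 and 16 reads with CDH3-AS1 siRNA and 26 and 53 reads with control siRNA. Neither passed the test, and the siRNA groups overlapped for both. In complex V, ATP5MJ, a small membrane-part subunit, had the highest difference with the block at 0.46 (SE 0.27), and ATP5PF, a subunit of the peripheral stalk, the lowest at -0.53 (SE 0.28). ATP5PF had 60.3 and 77.8 CPM with CDH3-AS1 siRNA and 103 and 101 CPM with control siRNA, so its groups did not overlap. ATP5MC3 also differed in both batches, by -0.75 and -0.30, with 190 and 174 CPM with CDH3-AS1 siRNA and 327 and 221 CPM with control siRNA.

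Among the mitochondrial genes, MT-CO2 and MT-ATP8 were the members called with the block. MT-CO2 had 79.4 and 1066 CPM with CDH3-AS1 siRNA and 213 and 1364 CPM with control siRNA, in batches 1 and 2, and was lower within each batch by -1.38 and -0.30 (log2). With the block its difference was -0.83 (SE 0.23, adjusted p = 0.0242, edgeR's quasi-likelihood test), and without it -0.41 (SE 1.19, adjusted p = 1.00). The adjusted p lay between 0.0242 and 1.00 over all alternatives, and DESeq2 with the block gave 0.345.

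MT-ATP8 had 69 and 1466 reads with CDH3-AS1 siRNA and 52 and 5027 reads with control siRNA, and was lower within each batch by -1.31 and -0.62. With the block its difference was -0.89 (SE 0.26, adjusted p = 0.0357, edgeR's quasi-likelihood test), and without it -0.64 (SE 1.73, adjusted p = 1.00). The adjusted p lay between 0.0357 and 1.00 over all alternatives, and DESeq2 with the block gave 0.241. For both genes each batch 2 library exceeded each batch 1 library, so the siRNA groups overlapped widely, and the larger difference was in batch 1, which holds the control library with foreign markers.

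The mitochondrial genes did not all differ the same way. In batch 1, 10 of the 13 were lower with CDH3-AS1 siRNA, with a median of -0.69, and in batch 2, 8 of 13 were lower, with a median of -0.15. Those lower in both batches numbered 6, among them all 3 complex IV genes, and MT-ND2 was the single gene higher in both, by 0.29 and 0.24. MT-ND5 differed by -1.20 in batch 1 and by 0.36 in batch 2, and MT-CYB by -0.83 and 0.26. MT-ATP6, which overlaps MT-ATP8, differed by 0.44 and -0.21. The siRNA groups overlapped in CPM for each of them, which follows from the batch difference.

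Several complex IV subunits have a second form that is restricted to certain tissues, and the common form dominated in each library. COX6A2, the heart and muscle form, had 3 and 5 reads with CDH3-AS1 siRNA and 10 and 15 reads with control siRNA, against 310 and 119 and then 111 and 282 reads of the common COX6A1. Its share of the summed density of both forms was 1.07% and 4.50% with CDH3-AS1 siRNA and 9.18% and 5.63% with control siRNA, in batches 1 and 2, highest in the library with muscle markers. The fitted difference of COX6A2 was -1.45 (SE 0.77, adjusted p = 1.00, edgeR's quasi-likelihood test) and -1.04 without that library.

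COX7A1, the muscle form beside COX7A2, had 1 read and COX7B2, a testis form beside COX7B, had 2 reads, all in the control library of batch 1. COX4I2, the lung form of subunit 4, had 7 and 1 reads with CDH3-AS1 siRNA and 0 and 6 reads with control siRNA, at most 0.202% of the summed density with COX4I1. NDUFA4L2, which is induced by hypoxia, had 4 and 0 reads with CDH3-AS1 siRNA and 1 and 0 reads with control siRNA, at most 0.826% of the summed density with NDUFA4. Counts of 3 reads, the floor chosen here, correspond to 0.473 and 1.15 CPM with CDH3-AS1 siRNA and 1.63 and 0.533 CPM with control siRNA. Levels below these rest on fewer than 3 reads.

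Gene names that share sequence were summed to see what their split hides. NDUFC2 alone differed by 1.56 in batch 1 and by -0.45 in batch 2, and NDUFC2-KCTD14 by -0.38 and 0.69. Summed, the pair had 156 and 246 CPM with CDH3-AS1 siRNA and 168 and 217 CPM with control siRNA, which is a difference of -0.10 and 0.18. ATP5MF with ATP5MF-PTCD1 had 241 and 188 CPM with CDH3-AS1 siRNA and 305 and 148 CPM with control siRNA, differences of -0.34 and 0.34. The opposite signs of the separate NDUFC2 names were thus far smaller in the sum.

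Of the 135 tested genes of related mitochondrial groups, 1 was called between the siRNAs with the block and 0 without it, against 1.62% and 0% of all genes tested. Of 47 tested assembly factors, which build the complexes, 15 (31.9%) were lower and 10 (21.3%) higher in both batches, and of 38 genes of mitochondrial gene expression 9 (23.7%) were lower and 8 (21.1%) higher, against 27.8% and 26.5% of all genes tested. Of 17 tested genes of the TCA cycle, which feeds electrons to complexes I and II, 13 (76.5%) were lower in both batches and 0 higher, with a median of -0.20. Of 25 import genes 12 (48.0%) were lower and 5 (20.0%) higher, and of 8 nuclear regulators 2 were lower and 2 higher. TOMM34, a cochaperone for precursors on their way to the mitochondrion, was the gene called with the block. It had 49.8 and 44.1 CPM with CDH3-AS1 siRNA and 109 and 96.3 CPM with control siRNA, a log2 difference of -1.08 with the block (SE 0.28, adjusted p = 0.0142, edgeR's quasi-likelihood test) and an adjusted p of 1.00 without it.

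In the batch comparison, 8 of the 47 tested assembly factors (17.0%) were called higher in batch 2 and 1 of them (2.13%), COX14, lower, against 9.52% and 6.3% of all genes tested. The largest differences were those of COX20 (2.78) and PET117 (2.06), which help to build complex IV, both on 0 reads in the control library of batch 1, and of the complex IV copper factor COA6 (1.95). COA6 had 83.1 and 100 CPM in batch 2 with CDH3-AS1 siRNA and control siRNA, against 32.0 and 15.7 CPM in batch 1. Of the 38 tested genes of mitochondrial gene expression 2 (5.26%) were called higher: TFAM, which packages and transcribes mitochondrial DNA, differed by 0.98 and TRMT10C, a tRNA-processing subunit, by 0.79. TFAM had 48.3 and 49.8 CPM in batch 2 against 35.3 and 16.3 CPM in batch 1. PPARGC1A, a coactivator of respiratory genes and 1 of 8 tested regulators, differed by 2.02 on levels of at most 5.69 CPM. SUCLG2 (0.79), 1 of 17 tested TCA cycle genes, and the chaperonin HSPE1 (1.25), 1 of 25 tested import genes, were also called higher.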

How the data were processed

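Ribo-seq libraries of Hermes 4B melanocytes were grouped by the labelled treatment and batch. Per the file headers, the authors deposited read counts and RPKM values per transcript for the untranslated regions and the coding sequence. The submitters' processing notes name hg38 and DESeq2. The sources used here do not give the aligner, counter, annotation, filters or strand. Without RNA-seq, values are footprint levels, not translational efficiency.

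Coding-sequence counts were summed by gene name, and all 14355 gene names entered filterByExpr (minimum count 10, minimum total 15), which kept 10469. edgeR 4.0.16 (TMM, quasi-likelihood, prior count 2, R 4.3.3) was fitted over all of them, tested on simulated data first, with Benjamini-Hochberg adjustment at 0.05. Within-batch differences are differences of log2 CPM between single libraries (TMM scaled, prior count 2), and those of summed gene names use plain CPM. They have no test, since a batch holds 1 library per siRNA. Deviations of same-numbered libraries correlated (r = 0.58) and the labels give them a shared batch, so the numbers pair the libraries. Alternatives were the batch as a block, DESeq2 1.42.0, limma 3.58.1 on log2(RPKM + 1), other filters, regions and transcripts, and each library left out. Depth sets the floor given above, at 3 counts. Promoters and coordinates are RefSeq's (GRCh38.p14), the assembly of hg38.

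The members and the gene lists were chosen with earlier results of these data known. Named are all mitochondrial members, those called, those past 0.5 (log2) in both batches, the extremes per complex of the blocked difference and of control density, the paralogues and the untested members. Genes outside this rule (ATP5F1A, ATP5F1B, UQCRC1, COX20, PET117, COA6 among others called or used as examples of a role) were picked after their values were seen. COX6B2 and COX8C were not analysed here.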

Additional observations from a re-analysis of the deposited data

Results flagged for a closer look

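For 9 members the within-batch siRNA differences had opposite signs in the batches and lay at least 1 apart on the log2 scale. A batch holds 1 library per siRNA, so none of these differences between batches was tested, and values are CDH3-AS1 siRNA over control siRNA. In complex I, MT-ND5 stood at -1.20 in batch 1 and 0.36 in batch 2, NDUFA9 at 0.57 and -0.83, and NDUFC1 at -1.30 and 0.34. NDUFC2 stood at 1.56 and -0.45 and NDUFC2-KCTD14 at -0.38 and 0.69, and these names share reads. In complex III, MT-CYB stood at -0.83 and 0.26 and UQCRC2 at -1.09 and 0.21, with UQCRC2 on 41 and 42 reads with CDH3-AS1 siRNA and 27 and 81 reads with control siRNA. In complex V, ATP5F1E stood at 0.47 and -0.66 and ATP5MF-PTCD1 at -1.04 and 0.86, the readthrough name on 14 to 23 reads per library. Batch 1 includes the control library with foreign markers, and its part in these values was not tested.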

How the results depend on the processing

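With the batch as a replicate block, 2 members (MT-CO2 and MT-ATP8) were called between the siRNAs in place of 0, and the block changed no other siRNA call among the members. The other siRNA alternatives called 0 members. Of all genes tested, edgeR with the block called 1.62%, and the other fits of all 4 libraries called 0 to 57 genes. The batch comparison already holds the block. It called 26 members, against 17 with DESeq2 (batch alone, and with the siRNA as a term), 15 with limma, 14 with edgeR on the batch alone (added after the data were seen) and 10 to 18 with a library left out, where the siRNA could not be kept as a term because no residual degree of freedom was left. Without the control library of batch 1 it called 12. Of the members called, 9 to 12 were mitochondrial in each of these settings. Over left-out libraries the nuclear median of the siRNA difference ran from -0.28 to -0.075 (all below 0), the mitochondrial median from -2.50 to 1.50, and the log2 ratio of the genomes from -1.75 to 1.67. These fits leave the batches unbalanced between the siRNAs. The ratio was -0.71 as a difference of median log2(CPM + 1). Without a library, MT-ATP8 ran from -5.34 to 3.38 (0.33 without the CDH3-AS1 siRNA library of batch 1) and MT-CO2 from -3.29 to 1.50 (0.49 without that library). NDUFB9 rests on 7 to 50 reads per library.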
